A study of Mus musculus with 4 samples.

Results

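The 34 genes described here carry glucose into the cell, break it down to lactate, and answer the hypoxia-inducible factor. They were taken by gene symbol from a written list, and all 34 were found among the 32285 genes of the count matrices. The rule uses no measured value, but the list was chosen with earlier results of these data known. A second gene identifier with the symbol Aldoa held 4 to 9 UMIs (unique molecular identifiers, which count single RNA molecules) per library and was not used. The data come from single-cell RNA sequencing of CD45+ (leukocyte) cells sorted from the spinal cord of C57BL/6 mice in which experimental autoimmune encephalomyelitis (EAE), an inflammatory demyelinating disease, had been induced. Both groups of mice were immunised and both were injected. The 2 control libraries come from mice given Ctrl MO and the 2 Reg1-MO libraries from mice given Reg1-MOs, in each case intracranially on day 9, with cells taken on day 16. The labels give neither age nor sex nor the number of animals behind a library, and they do not say that libraries of a group came from separate animals, so the p-values below measure only the spread between these samples. No mice without EAE or without injection were analysed here.

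The labels spell out neither Reg1 nor MO and name no target site. Below, Reg1 is taken to be Regnase-1, the RNase that Zc3h12a encodes, and MO a morpholino oligonucleotide. The Zc3h12a level, per 1000000 UMIs, was 48.0 and 59.3 in the macrophage-like cells of the controls and 49.0 and 48.8 in those of the Reg1-MO libraries, and it passed the test in none of the 9 cell classes tested (lowest edgeR adjusted p = 0.283, neutrophil-like cells). A morpholino can act on splicing or translation without lowering the RNA, so these values do not check the labels.

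In glycolysis, glucose enters through transporters such as Slc2a1 (GLUT1), is trapped by hexokinases, committed by phosphofructokinase, split by aldolase, and carried through Gapdh, Pgk1, enolase and pyruvate kinase to pyruvate, which lactate dehydrogenase turns into lactate for export by Slc16a3 (MCT4). The hypoxia-inducible factor, whose oxygen-regulated subunit is Hif1a, raises the transcription of most of these genes by binding hypoxia response elements that contain the core ACGTG or GCGTG, and its prolyl hydroxylases, Egln3 among them, mark it for destruction when oxygen is present. Activated macrophages, neutrophils and effector T cells are known for a high rate of glycolysis, whereas resting microglia rely more on oxidative metabolism.

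To show what the members share in sequence, RefSeq promoters on GRCm38.p6 were searched, from 250 bases before to 50 bases after each transcription start. The search was for ACGTG or GCGTG on both strands (read as CACGT or CACGC on the other strand), overlapping matches included. Promoters of a chromosome that holds none of the members were left out. Of the 32 members with a promoter entry, 29 (90.6%) had a match, against 12628 of 27025 genes (46.7%). The stricter core ACGTG was present in 68.8% of the members and in 21.8% of all genes. Per promoter, matches were found in 80.4% of the 46 member promoters and in 43.8% of 32851 promoters. Ndrg1 and Slc2a3 had no entry. Both cores contain CG, and the comparison with all genes did not take the base content of the promoters into account. The 8 windows of 30 bases printed here belong to genes that the results below turn on, are read 5′ to 3′ on the strand of the gene, and carry the matches in capitals. A match is a description of these letters and not evidence of binding.
Slc2a1, chr4:119108684-119108713, plus strand: CACGCctctcagagtcccgccccggACGTG
Slc16a3, chr11:120949034-120949063, plus strand: gcggtgACGTGcgcgggggACGTGccgcgc
Hk2, chr6:82774664-82774693, minus strand: tagccacggaacaCACGTcccaactctggc
Ldha, chr7:46845748-46845777, plus strand: ccagcctaCACGTGggttcccgCACGTccg
Bnip3, chr7:138909597-138909626, minus strand: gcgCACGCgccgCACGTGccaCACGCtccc
Ero1l, chr14:45318631-45318660, minus strand: GCGTGgacagaggcgcgcgccgctgCACGT
Egln3, chr12:54204087-54204116, minus strand: atgtgcatctcagACGTGagatccaggttt
Ldhb, chr6:142508067-142508096, minus strand: agcgggggagagcGCGTGcacactccagcc
The windows of Bnip3 and Ldha held the palindrome CACGTG, which is read on both strands. The Ldha promoter had 7 matches in all and that of Ldhb 1. Hif1a, the subunit of the factor itself, also had 3 matches in its own promoter.

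The libraries held 75472324 to 174552218 UMIs and 5256 to 9103 barcodes, of which 26853 cells in all were used (median 9458 to 11548 UMIs per cell). Ptprc, which encodes CD45, was present in every library and named class, from 178 per 1000000 UMIs (migratory DC-like) to 2044 (NK/ILC1-like). Any pair of libraries shared 10 to 78 barcodes, at most 0.945% of the smaller one. Cells fell into 28 clusters, and 23 of these were named from marker genes. The other 5 carried markers of more than 1 class and held 12.5%, 10.8%, 13.3% and 8.32% of the cells of control 1, control 2, Reg1-MO 1 and Reg1-MO 2. Levels are given as normalised UMI counts per 1000000 (CPM) of a class summed within a library. A UMI tags one end of a transcript, so these are levels per molecule, with no correction for transcript length needed. Unless another order is named, 4 values in a row stand for control 1, control 2, Reg1-MO 1 and Reg1-MO 2. Fold changes are log2 of Reg1-MO over control, from fits to 2 libraries per group. The value after ±, unless marked SD, is a standard error worked back from the F statistic of edgeR's quasi-likelihood test. It draws on dispersion estimates shared across genes and is not the spread of the 2 libraries. A gene is called where the adjusted p of that test is under 0.05 over all genes tested in that class.

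The 34 genes were spread unevenly over the infiltrate. Their summed UMIs made up 1.20%, 0.727%, 1.49% and 1.41% of all UMIs of macrophage-like cells, against 0.705%, 0.641%, 0.714% and 0.749% in neutrophil-like cells and 0.698%, 0.541%, 0.834% and 0.783% in CD4 T-like cells. The share was lowest among the tested classes in NK/ILC1-like cells, at 0.300%, 0.263%, 0.309% and 0.334%. In 15 of the 34 genes the macrophage-like class had the highest mean of the 8 classes, but only for Vegfa, the angiogenic growth factor, did all 4 libraries (177 to 261 CPM) lie above all 4 of the next class, conventional DC-like cells (39.2 to 87.2 CPM). These levels describe classes that were defined from the same cells, and were not tested.

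Several members marked other classes. Slc2a3 (GLUT3), a high-affinity glucose transporter, was at 290.2, 308, 321 and 379.9 CPM in neutrophil-like cells and at only 2.5, 3.68, 2.55 and 3.19 CPM in macrophage-like cells. Neutrophil-like cells were also highest for Slc16a3, at 402, 355, 435 and 629 CPM, and for Pfkfb4, one of the enzymes that make the phosphofructokinase activator fructose 2,6-bisphosphate, at 65.2, 58.1, 69.1 and 71.7 CPM. None of these 3 ranges overlapped that of the next class. Microglia-like cells stood highest, again without overlap, for 3 members. These were Ldhb, the heart-type lactate dehydrogenase subunit (415, 332, 469 and 375 CPM), Hk2 (237, 379, 272 and 248 CPM) and Pfkfb3 (304, 347, 227 and 237 CPM). Hif1a was highest in CD4 T-like cells, at 1051, 939, 981 and 823 CPM, above regulatory T-like cells at 647, 525, 711 and 660.2 CPM and macrophage-like cells at 338, 244, 522 and 538 CPM. Pfkp, the platelet-type phosphofructokinase, was highest in conventional DC-like cells at 748, 549, 799.5 and 758 CPM. Thinned to 3000 UMIs per cell, Slc2a3 was seen in 48.4% to 62.9% of neutrophil-like cells (median depth 4057 to 5515 UMIs) and in 0.457% to 1.12% of macrophage-like cells (14007 to 17380 UMIs), where only 23 to 62 cells per library were too shallow to thin; the unthinned shares were 61.3% to 74.7% and 2.84% to 3.80%. Thinning left out 116 to 390 neutrophil-like cells per library.

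In macrophage-like cells, both Reg1-MO libraries lay above both controls for most of the 34 genes, and none passed the test. Of the 33 members that passed the filter on low counts (all but Adm, the vasodilator adrenomedullin, at 0.040 to 0.128 CPM), 28 had a log2 fold change above 0 (48.4% of all genes tested did) and 5 below. In 24, both Reg1-MO libraries lay above both controls, where 28.2% of all 13144 genes tested did so, and in 2, Pfkm and Eno2, both lay below, against 29.9%. The median log2 fold change of the members was 0.59, beside -0.01 for all genes tested. With edgeR, 0 members and 0 genes were called (0%), while 17 members and 2342 genes had an unadjusted p under 0.05, and the lowest adjusted p of a member was 0.234. DESeq2 called 9 members among 530 of 13144 genes (4.03%), and edgeR without the filter on low counts called 21 members among 2051 of 21262 genes (9.65%). These counts are summed over a class of sorted cells, so alone they cannot tell more RNA per cell from a different mix of cells. Values for the clusters of the class are given below.

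Control 2 stood apart from the other libraries in this class and was the lowest of the 4 libraries for 28 of the 32 members with at least 1 CPM. Without it, the median log2 fold change was 0.36, 29 members were above 0 and 2 were called, among 109 of 13904 genes (0.784%). Without control 1 in its place, the median was 0.92 and 25 were called, among 2249 of 13263 genes (17%). So the count of called members depended on which control was kept. Neutrophil markers also moved with the groups here: the summed level of 12 markers in macrophage-like cells was 1450, 1987, 837 and 629 CPM, with 10 of the 12 lower in both Reg1-MO libraries and none below 1 CPM. The 13 macrophage markers summed to 33554, 51874, 24671 and 26623 CPM, and the 8 T cell markers, all higher in both Reg1-MO libraries, to 15.1, 7.58, 23.5 and 36.4 CPM. The part of these signals in the result was not tested.

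Among glucose uptake and hexokinase genes, Slc2a1 (ENSMUSG00000028645, chr4:119108711-119137983 on GRCm38) had one of the smallest p-values of the class. Its level was 170.5 and 101 CPM in the controls and 294 and 322 CPM in the Reg1-MO libraries (log2 fold change 1.18 ± 0.27, edgeR adjusted p = 0.234). The Reg1-MO libraries lay close together and above both controls, which differed from each other. Hk2, the inducible hexokinase bound to mitochondria, was at 135 and 105 CPM in the controls and 189 and 199 CPM in the Reg1-MO libraries (0.69 ± 0.16, edgeR adjusted p = 0.234). Hk1, the housekeeping form, was at 40.8, 29.8, 53.9 and 67 CPM, again without overlap between the groups. Hk3, a hexokinase of myeloid cells, overlapped between the groups at 124, 39.3, 163 and 121 CPM, with control 2 far below the other 3 libraries.

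In upper glycolysis, 5 of 7 genes had both Reg1-MO libraries above both controls. Aldoa, the aldolase that splits fructose 1,6-bisphosphate and the most abundant of these genes, was at 1039.7 and 758 CPM in the controls and 1387 and 1221 CPM in the Reg1-MO libraries (0.54 ± 0.20, edgeR adjusted p = 0.271). Tpi1, triosephosphate isomerase, was at 570.0, 268, 860.3 and 749 CPM. Both followed the same order, with control 2 lowest and Reg1-MO 1 highest. The phosphofructokinases Pfkp (199, 135, 280.0 and 322 CPM) and Pfkl (154, 115, 204 and 215 CPM) also had both Reg1-MO libraries on top. The muscle form Pfkm was at a low level, with 2.17, 3.13, 2.08 and 1.65 CPM. Gpi1, glucose-6-phosphate isomerase, had the smallest difference of the 5, with a log2 fold change of 0.36 ± 0.16. Of the 2 bifunctional enzymes of fructose 2,6-bisphosphate, Pfkfb3 was at 88.3, 79.6, 99.5 and 95.6 CPM (0.22 ± 0.11, edgeR adjusted p = 0.353) and Pfkfb4 at 13.4, 12.7, 15.6 and 19 CPM.

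In lower glycolysis, 4 of 6 genes had both Reg1-MO libraries above both controls. Gapdh, the most abundant of all 34 members, was at 2715 and 1658 CPM in the controls and 3229.8 and 3015 CPM in the Reg1-MO libraries (0.51 ± 0.26, edgeR adjusted p = 0.353). Pgk1, the first enzyme of the pathway to make ATP, was at 564, 289, 775 and 749.8 CPM. In both, control 1 was nearer to the Reg1-MO libraries than to control 2. Pkm, pyruvate kinase, was at 1403, 839.5, 1595 and 1403 CPM, with Reg1-MO 2 level with control 1. Eno1 was at 470.0, 246, 536 and 521 CPM, but 54 to 283 UMIs per library went to the near-identical copy Eno1b beside 6207 to 26294 for Eno1, so the split between these copies is uncertain. The neuronal enolase Eno2 was close to 0, at 0.434, 1.42, 0.428 and 0.275 CPM.

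None of the 4 lactate genes passed the test. Ldha, which makes lactate, was at 835 and 377 CPM in the controls and 1118 and 988 CPM in the Reg1-MO libraries (0.80 ± 0.38, edgeR adjusted p = 0.33), and the lactate exporter Slc16a3 at 168 and 65.3 against 275 and 303 CPM (1.30 ± 0.44, edgeR adjusted p = 0.256). The groups did not overlap for either gene. Ldhb was at 35.2, 60.5, 38.4 and 26.3 CPM and Slc16a1 (MCT1) at 19.3, 21.2, 15.8 and 20.5 CPM, both with overlap. At 3000 UMIs per cell, Slc16a3 was seen in 36.5%, 15.8%, 51.5% and 51.7% of macrophage-like cells, beside 0% to 2.73% of NK/ILC1-like cells (median depth 5805 to 7217 UMIs); unthinned, the macrophage-like shares were 74.9%, 53.1%, 86.7% and 85.2% and those of NK/ILC1-like cells 1.98% to 5.46%.

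Neither of the 2 regulators of the factor passed the test, and both had both Reg1-MO libraries above both controls. Hif1a, with the smallest unadjusted p of the 34 genes here, was at 338 and 244 CPM in the controls and 522 and 538 CPM in the Reg1-MO libraries (0.87 ± 0.19, edgeR adjusted p = 0.234). Egln3, a prolyl hydroxylase that is itself induced by the factor, was at 69, 30.9, 108 and 99.2 CPM. Of the 8 genes grouped as responsive to the factor, 6 had both Reg1-MO libraries above both controls. Mif, the cytokine with the highest level of the group, was at 610.3 and 323 CPM in the controls and 884 and 750.0 CPM in the Reg1-MO libraries (0.81 ± 0.32, edgeR adjusted p = 0.281). Ero1l, an oxidase of protein folding, had the largest log2 fold change of the 33 members, 1.43 ± 0.44, from 94.4 and 36.6 CPM in the controls to 171 and 183 CPM. Control 2 was again the lowest for both. Bnip3, which targets mitochondria for removal, was at 97.4, 42.6, 173 and 135 CPM, and P4ha1, a collagen prolyl hydroxylase, at 124, 72.9, 176 and 185 CPM. Vegfa was at 187, 177, 235 and 261 CPM and Pdk1, which inhibits pyruvate dehydrogenase in the mitochondria, at 28.5, 19.9, 37.3 and 35.7 CPM. Ndrg1, a stress-responsive gene, was nearly level at 78.9, 72.4, 87.4 and 74.4 CPM.

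**Figure D1:**
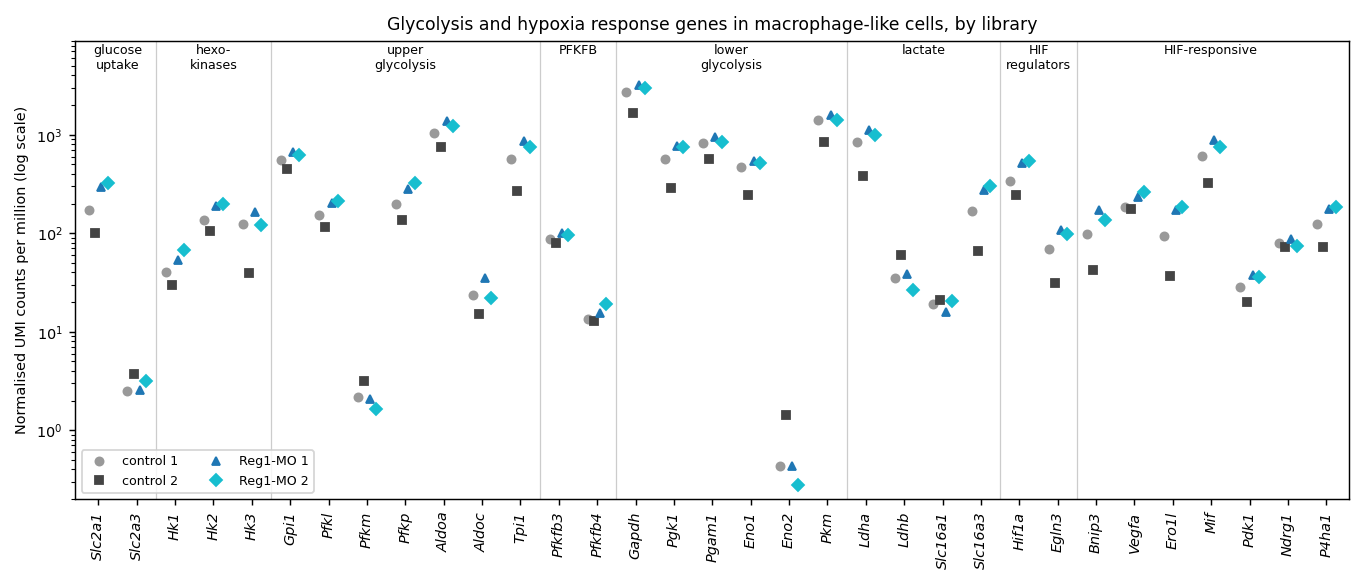
Level of each member (horizontal axis, grouped by role) in macrophage-like cells, in CPM on a log scale; each point is 1 library and Adm, near 0, is left out. The Reg1-MO libraries lie above both controls for 24 genes, and control 2 (dark squares) is the lowest point for most.

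The macrophage-like class joins 4 clusters whose proportions differed between libraries. Cluster 2, led by Arg1, Apoe and Cfb, held 47.4%, 12.6%, 55.8% and 40.6% of its cells, and cluster 4, led by Cxcl9, held 22.8%, 7.46%, 34.4% and 45%. Cluster 16, with Vcan and Chil3, held 19.0%, 28.5%, 3.36% and 10.8%, and cluster 18, with Gpnmb and Saa3, held 10.8%, 51.4%, 6.49% and 3.67%. The clusters differed in the summed level of the 34 genes, which was 0.923% to 1.51% of UMIs in cluster 2 and 1.08% to 1.69% in cluster 4, against 0.519% to 0.559% in cluster 16 and 0.696% to 0.80% in cluster 18. Control 2, the lowest library of the class, thus had most of its macrophage-like cells in the clusters where the members' share was lower. Given equal weight, the 4 clusters had 28 of 33 members above 0 (50.2% of all genes tested in the class) and 21 with both Reg1-MO libraries above both controls (26.8% of all genes), with 3 below (27.1%) and a median log2 ratio of 0.34, beside 0.0019 for all genes. In Reg1-MO 2 this gave the 41 cells of cluster 18 as much weight as the 502 of cluster 4.

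Within cluster 2, 30 of the 32 members that passed the filter were above 0 (49.6% of all genes) and 25 had both Reg1-MO libraries above both controls, where 25% of all genes tested did, with 0 below, against 24.1% (median 0.51). Within cluster 4, 27 of 32 were above 0 (48.8% of all genes) and 20 lay above both controls, where 26.7% of all genes did, with 2 below, again against 26.7% (median 0.49). With edgeR, 0 members were called in either cluster (0% of genes), with 19 and 7 at an unadjusted p under 0.05. In cluster 2, DESeq2 called 7 members among 183 of 11971 genes (1.53%), and edgeR without control 1 called 16 among 394 of 11652 genes (3.38%). In cluster 4, DESeq2 called 0 members among 123 of 10697 genes (1.15%), and edgeR without control 1 called 21 among 2074 of 11125 genes (18.6%). Slc2a1 was at 172, 139, 281 and 307 CPM in cluster 2 and 269.8, 150.0, 393 and 416 CPM in cluster 4, and Hif1a at 339, 272, 504 and 534 and 471, 320.4, 673 and 649 CPM. Control 2 had only 173 and 102 cells in these clusters.

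Cluster 16 gave another picture. Slc2a1 was at 94.1, 107, 103 and 89.6 CPM and Hif1a at 269, 303, 244 and 202 CPM there, neither above the controls in both Reg1-MO libraries. Of 30 members that passed the filter, 18 were above 0 (49.6% of all genes), and the median was 0.09. Both Reg1-MO libraries lay above both controls for 13 members, against 26.9% of all genes, and below for 5, against 27.2%. The 12 neutrophil markers in cluster 16 summed to 4353, 7095, 7036 and 711 CPM, with 5 lower in both Reg1-MO libraries and 0 higher. The 13 macrophage markers summed to 61449, 66431, 44455 and 40156 CPM, with 7 lower and 3 higher. The part of these markers in the results for the cluster was not tested. Ldha rose in this cluster, from 233 and 222 CPM in the controls to 291 and 325 CPM (0.44 ± 0.11, edgeR adjusted p = 0.0412), the only member among 596 genes called of 9457 (6.3%), 317 of them higher (3.35%). That call was lost with DESeq2 (adjusted p = 0.178) and without any one of control 1, control 2 or Reg1-MO 2 (adjusted p = 0.129, 0.324 and 0.221). Without Reg1-MO 1, 4 members were called, among 698 of 10406 genes (6.71%). Cluster 18, with 41 cells in Reg1-MO 2, was not tested, and its Slc2a1 level was 81.4, 90.04, 93 and 83.3 CPM.

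**Figure D2:**
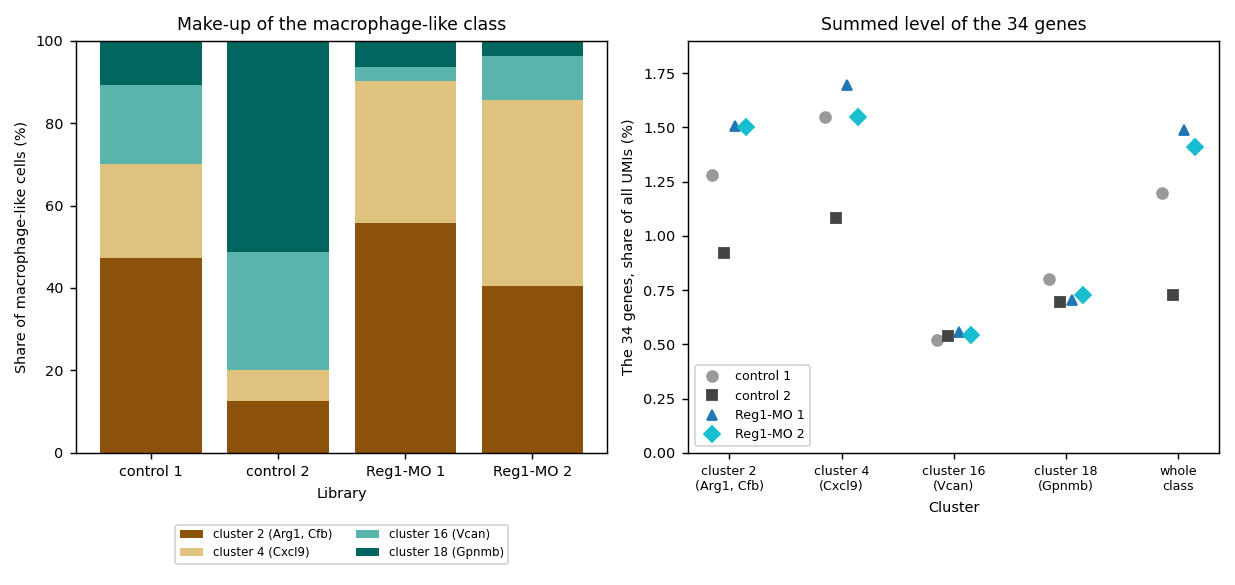
Left, share of macrophage-like cells (percent) in clusters 2, 4, 16 and 18 for each library; right, summed UMIs of the 34 genes as a percent of all UMIs, per library, in each cluster and in the whole class. Control 2 has 51.4% of its cells in cluster 18, and in clusters 2 and 4 it is the lowest library.

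In neutrophil-like cells, whose number varied from 426 to 2157 per library, most members had both Reg1-MO libraries above both controls and none passed the test. Of 30 members that passed the filter, 28 were above 0 (48.7% of all genes), and their median of 0.40 compares with -0.01 for all genes. Both Reg1-MO libraries lay above both controls for 23 (22.2% of all 9817 genes) and below for 2 (24.9%). With edgeR, 0 members and 0 genes were called (0%), while 11 members and 1345 genes had an unadjusted p under 0.05. DESeq2 called 4 members among 151 of 9817 genes (1.54%). Without control 1, 10 members were called among 468 of 9679 genes (4.84%), and without control 2, 1 was among 88 of 9650 genes (0.912%). As in macrophage-like cells, control 2 was the lowest library for most members, 26 of 30 at 1 CPM or more. Macrophage markers (13 genes) in this class summed to 16089, 19915, 12217 and 13938 CPM, and 10 of 12 microglia markers, 109, 87.5, 210 and 116 CPM in sum, were higher in both Reg1-MO libraries; their part in the result was not tested.

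Hk2 had the smallest p in neutrophil-like cells, with 33.8 and 27.3 CPM in the controls and 65.1 and 63.4 CPM in the Reg1-MO libraries (1.07 ± 0.16, edgeR adjusted p = 0.152). Pfkp was at 57.5 and 51.4 against 84.7 and 89.8 CPM (0.68 ± 0.13, edgeR adjusted p = 0.184), and Pfkl at 20.7 and 14.3 against 30.6 and 32.4 CPM (0.86 ± 0.21, edgeR adjusted p = 0.212). These 3 are given because their p-values were the smallest of the class. Gpi1, the isomerase between hexokinase and phosphofructokinase, was at 869.6 and 888 CPM in the controls and, lower, at 633 and 709 CPM, in the Reg1-MO libraries (-0.39 ± 0.12, edgeR adjusted p = 0.267). Pfkfb3 was likewise lower, at 136, 170.1, 131 and 117 CPM. Genes at a high level in this class had smaller differences, with Slc2a3 at a log2 fold change of 0.23 ± 0.13, Slc16a3 at 0.50 ± 0.19 and Hk3 at 0.19 ± 0.12.

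The neutrophil-like class also joins clusters. In cluster 10, with Ngp, Ltf and Camp among its leading genes, Hk2 rose from 24.6 and 23.9 CPM in the controls to 48.1 and 59.5 CPM (1.19 ± 0.19, edgeR adjusted p = 0.0313), 1 of 50 genes called of 7440 (0.672%), 35 of them higher (0.47%). The call was lost without control 2 (adjusted p = 0.0985) and without Reg1-MO 2 (adjusted p = 0.0859). In cluster 9, led by Retnlg, Hk2 was at 15.5, 9.49, 17.6 and 39.5 CPM, with Reg1-MO 1 close to control 1, and the member nearest the threshold, where 16 of 7518 genes (0.213%) and no member were called, was Ndrg1, at 28.7, 20.5, 61.7 and 64.6 CPM (1.37 ± 0.23, edgeR adjusted p = 0.0583). In cluster 22, led by Acod1 and Cxcl2, Hk2 was at its highest level among the neutrophil-like clusters, 123, 50.8, 332 and 286 CPM. Both Reg1-MO libraries lay above both controls for Hk2 in all 3 of these clusters. Cluster 11, which shares Ngp, Camp and Ltf as leading genes with cluster 10 and had 45 cells in Reg1-MO 1, was not tested. The 34 genes made up 0.653%, 0.614%, 0.579% and 0.647% of its UMIs, with a mean of 0.634% in the controls and 0.613% in the Reg1-MO libraries, and Hk2 was at 45.9, 46.9, 41 and 59.5 CPM. There the groups overlapped in both measures. Of the members that passed the filter, 24 of 28 in cluster 9, 24 of 27 in cluster 10 and 22 of 27 in cluster 22 were above 0 (48.5%, 50% and 48% of all genes), and 21, 20 and 14 of them lay above both controls (21.9%, 21.8% and 24%), with 3, 1 and 0 below (23.7%, 23.8% and 25.9%). In cluster 22, 1 of 4337 genes (0.0231%) and no member was called. Without control 1, 15 members were called in cluster 9, among 376 of 7488 genes (5.02%), and without control 2, 5, among 93 of 7363 genes (1.26%).

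**Figure D3:**
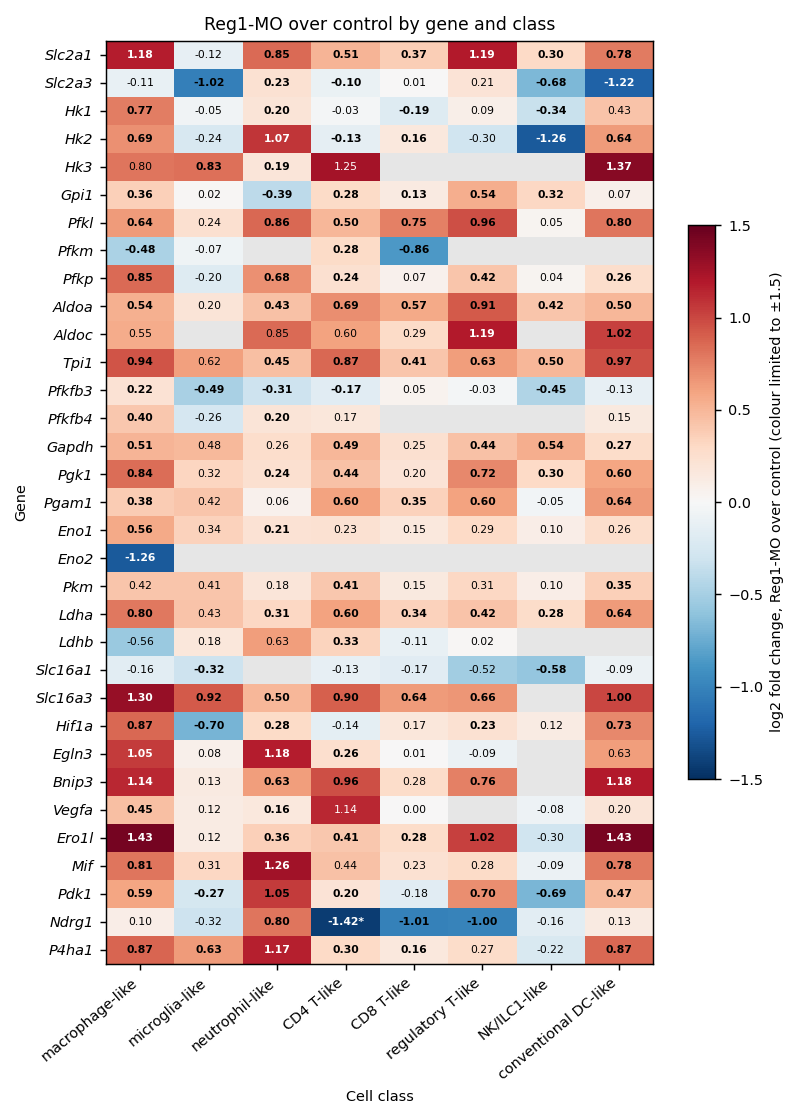
Log2 fold change, Reg1-MO over control, of 33 members (rows; Adm is left out) in 8 classes (columns), with colours limited to 1.5 in either direction; bold marks genes whose libraries do not overlap between groups, an asterisk an adjusted p under 0.05 and grey a gene that did not pass the filter. The single asterisk is Ndrg1 in CD4 T-like cells.

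CD4 T-like cells held the one member called in a whole class. Ndrg1 (ENSMUSG00000005125, chr15:66929318-66969640 on GRCm38, minus strand) fell from 46.4 and 49.4 CPM in the controls to 19.96 and 15 CPM in the Reg1-MO libraries (-1.42 ± 0.15, edgeR adjusted p = 0.0276). In this class 12 of 11235 genes were called (0.107%), 7 of them lower (0.0623%). The call was lost with a mitochondrial limit of 5% of UMIs per cell (-1.42, adjusted p = 0.0563), and DESeq2 gave this gene no adjusted p (-1.43). Leaving out any one library kept it, with adjusted p from 0.000966 to 0.0185, and without control 1 the called members numbered 13, among 414 of 11099 genes (3.73%). Both Reg1-MO libraries lay below both controls in each of the 3 CD4 clusters, with 45.4, 48.1, 18 and 14 CPM in cluster 6, 76.8, 64.5, 32.1 and 31.1 CPM in cluster 7 and 11, 33.4, 10.3 and 3.28 CPM in cluster 8. Cluster 8 held only 317029 to 846681 UMIs per library, so its values rest on few molecules, and control 1 and Reg1-MO 1 were nearly level there. The 3 clusters are parts of this class and come from the same libraries. At 3000 UMIs per cell, Ndrg1 was seen in 7.28%, 8.30%, 4.395% and 3.27% of CD4 T-like cells (12.9%, 14.3%, 8.78% and 6.80% unthinned), whose median depth was 6751 to 6942 UMIs. Microglia-like cells, at a median of 13430 to 19120 UMIs, had shares of 0% to 0.645% (0.602% to 3.20% unthinned).

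Ndrg1 was also lower in both Reg1-MO libraries in CD8 T-like cells, at 13.4, 27.2, 11.3 and 6.39 CPM (-1.01 ± 0.40), and in regulatory T-like cells, at 97.4, 127, 72.8 and 35.1 CPM (-1.003 ± 0.30), without passing the test. In neutrophil-like cells the order was the opposite, with 33.4 and 23.3 CPM in the controls and 52.1 and 47.2 CPM in the Reg1-MO libraries. In CD4 T-like cells the 12 neutrophil markers summed to 634, 708, 229 and 270 CPM, with 11 of 12 lower in both Reg1-MO libraries, and the 4 regulatory T markers to 1030, 1031, 838 and 760 CPM. Their part in the result was not tested.

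Most other members had values above 0 in CD4 T-like cells. Of 32 that passed the filter, 25 were above 0 (49.7% of all genes; median 0.37, beside -0.0024 for all genes), 19 had both Reg1-MO libraries above both controls (23.4% of all genes did) and 4 had both below (24.2%). The median was 0.24 without control 2. Pgam1, phosphoglycerate mutase, was at 187 and 143 against 267 and 236 CPM (0.60 ± 0.14, edgeR adjusted p = 0.223), and Slc16a3 at 29.2 and 17.1 against 47.6 and 41.5 CPM (0.90 ± 0.21, edgeR adjusted p = 0.223). Slc2a1, at the head of the pathway, was at 67.6, 48.2, 79.6 and 87.9 CPM. Hk2 was at 84, 97, 81.5 and 83.5 CPM, Hk1 at 92.9, 89.8, 88.7 and 90.6 CPM and Hif1a at 1051, 939, 981 and 823 CPM, none of these 3 higher in both Reg1-MO libraries. Enzymes further down had values above 0, with log2 fold changes of 0.87 for Tpi1, 0.69 for Aldoa, 0.60 for Ldha and 0.49 for Gapdh.

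In all T-like cells together, 23 of 32 members were above 0 (50.8% of all genes; median 0.33), 18 lay above both controls (22.7% of all genes) and 6 below (22.4%). With edgeR 0 members and 0 of 12379 genes were called (0%), with 15 members and 1302 genes at an unadjusted p under 0.05; by DESeq2, 5 members were called among 72 of 12379 genes (0.582%), and by edgeR without control 1, 8 among 172 of 12331 genes (1.39%). The median was 0.50 without control 1 and 0.19 without control 2. The 3 with the smallest p were Slc16a3 at 29.3, 20.1, 49 and 45.8 CPM (0.92 ± 0.18), Pfkl at 61.2, 51.3, 80.5 and 93.4 CPM (0.62 ± 0.12) and Ndrg1 at 37.8, 55.2, 24.2 and 15.2 CPM (-1.20 ± 0.26), and none overlapped between groups.

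In regulatory T-like cells, with 121 to 364 cells per library, 23 of 28 members were above 0 (48.4% of all genes; median 0.42), and 16 had both Reg1-MO libraries above both controls (21.5% of all genes) with 1 below (21.6%). With edgeR 0 members were called among 3 of 8814 genes (0.034%), and 16 had an unadjusted p under 0.05, while DESeq2 called 3 members among 52 of 8814 genes (0.59%). Without control 1, edgeR called 12 members among 246 of 9465 genes (2.6%) (median 0.65), and without control 2 it called 5 among 252 of 9436 genes (2.67%) (median 0.24). Pgk1 was at 286 and 234 against 432 and 422 CPM (0.72 ± 0.14, edgeR adjusted p = 0.107), Aldoa at 584 and 383 against 918 and 902 CPM (0.91 ± 0.18, edgeR adjusted p = 0.115), and Slc2a1 at 54 and 37.3 against 89.1 and 120.0 CPM (1.19 ± 0.24, edgeR adjusted p = 0.115). These 3 had the smallest p-values of the class. In CD8 T-like cells 24 of 30 were above 0 (50.3% of all genes; median 0.16), 11 lay above both controls (19.5% of all genes) and 3 below (19.9%), and with edgeR 0 were called (0% of 10516 genes, with 6 members and 695 genes at an unadjusted p under 0.05; DESeq2 called 0 members among 26 of 10516 genes (0.247%)). Leaving out control 1 gave a median of 0.40 and leaving out control 2 one of 0.033, while it was 0.29 on dropping Reg1-MO 2 and 0.092 on dropping Reg1-MO 1. The 12 neutrophil markers summed to 673, 836, 135 and 236 CPM in CD8 T-like cells, with 11 of 12 lower in both Reg1-MO libraries, and their part in the result was not tested. The 3 with the smallest p there were Pfkl at 39.1, 31.6, 58.3 and 63.6 CPM (0.75 ± 0.16), Aldoa at 457, 293, 595 and 526 CPM (0.57 ± 0.21) and Pgam1 at 171, 155, 223 and 193 CPM (0.35 ± 0.13).

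In conventional DC-like cells most members were above 0. Of 30 members, 27 were above 0 (49.2% of all genes; median 0.61), 20 lay above both controls (24.1% of all genes) and 1 below (24.9%). With edgeR 0 were called (0% of 9469 genes, with 13 members and 1230 genes at an unadjusted p under 0.05; DESeq2 called 0 members among 39 genes). Bnip3 was at 29.5 and 14.3 against 50.5 and 56.4 CPM (1.18 ± 0.30, edgeR adjusted p = 0.281), Slc16a3 at 82.4 and 47.8 against 124 and 145 CPM (1.003 ± 0.26, edgeR adjusted p = 0.281), and Ero1l at 42.3 and 17.2 against 64.9 and 109 CPM (1.43 ± 0.40, edgeR adjusted p = 0.294). These 3 had the smallest p-values of the class. The counts rest on 55 cells of control 2, which was the lowest library for 26 of 32 members. The 8 T cell markers in this class summed to 7.50, 5.86, 30.5 and 16.2 CPM, with 7 higher in both Reg1-MO libraries and 0 lower. The 12 neutrophil markers summed to 609, 533, 432 and 449 CPM, with 5 lower and 0 higher. The part of these markers in the result was not tested. Without control 1, 23 members were called among 1451 of 10019 genes (14.5%) (median 0.99), and without control 2, 1 was among 157 of 9859 genes (1.59%) (median 0.27).

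In microglia-like cells few members separated the groups. Of 31, 19 were above 0 (50.5% of all genes; median 0.12), 3 lay above both controls (21.4% of all genes) and 5 below (21.1%). With edgeR 0 were called (0% of 11691 genes, with 3 members and 1044 genes at an unadjusted p under 0.05; DESeq2 called 0 members among 34 genes). Without control 1, 3 were called, among 599 of 12253 genes (4.89%). The median depended on the libraries and the clustering: it was -0.025 when Reg1-MO 1 was left out, 0.34 when Reg1-MO 2 was, 0.21 when control 1 was and 0.048 when control 2 was, and 0.45, with 24 of 31 above 0, when cells were clustered without the members. Slc16a3, at a low level, was at 32.3 and 23.3 against 50.1 and 54.2 CPM (0.92 ± 0.23, edgeR adjusted p = 0.552), and P4ha1 at 73.3, 108, 139 and 144 CPM (0.63 ± 0.26). Slc2a3 went the other way, at 12.8 and 25.2 against 10.2 and 9.01 CPM (-1.02 ± 0.35, edgeR adjusted p = 0.552). Hif1a too was lower in both Reg1-MO libraries, at 209, 362, 201 and 151 CPM, and control 2 was far above the other 3. In control 2, 501 of the 514 microglia-like cells were of cluster 23, whereas most in the other libraries were of cluster 15, and in cluster 15 alone, where control 2 had 13 cells, Hif1a was at 199.8, 250.5, 189 and 146 CPM. In cluster 23, with 17 to 34 cells in the other libraries, it was at 363, 364, 364 and 496 CPM. The 12 neutrophil markers in microglia-like cells summed to 536, 801, 274 and 428 CPM, with 8 lower in both Reg1-MO libraries and 0 higher. The 12 microglia markers summed to 9578, 7816, 11509 and 15135 CPM, with 9 higher and 0 lower. The part of these markers in the result was not tested.

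In NK/ILC1-like cells the members were evenly divided. Of 24 members that passed the filter, 12 were above 0 (49.9% of all genes) and 12 below, 7 lay above both controls (21% of all genes) and 6 below (20.4%), and the median was -0.00085. With edgeR 0 were called among 29 of 7532 genes (0.385%), while 5 members had an unadjusted p under 0.05. By DESeq2 the count was also 0, among 12 of 7532 genes (0.159%), and without control 1 it was 1 with edgeR, among 271 of 8045 genes (3.37%). Gapdh was at 608, 396, 695 and 776 CPM (0.54 ± 0.17, edgeR adjusted p = 0.203) and Aldoa at 199, 187, 268 and 246 CPM (0.42 ± 0.16). Slc2a3 was lower, at 58.8 and 61.3 against 37.9 and 36.6 CPM (-0.68 ± 0.24, edgeR adjusted p = 0.276).

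Where a step has several isozymes, the share of each in the summed UMIs of its family showed which form a class used. Macrophage-like cells took glucose transporter transcripts almost wholly from Slc2a1 (98.6%, 96.5%, 99.1% and 99.0% of Slc2a1 and Slc2a3), while in neutrophil-like cells Slc2a1 made up 24.7%, 16.3%, 27.1% and 29.4%. Among hexokinases, Hk3 led in neutrophil-like cells (64.7%, 65.6%, 57.9% and 59.0%) and Hk2 in microglia-like cells (71.8%, 89.1%, 67.7% and 72.0%). Macrophage-like cells used both, with Hk2 at 45%, 60.4%, 46.5% and 51.4% and Hk3 at 41.3%, 22.6%, 40.2% and 31.3%. Lactate dehydrogenase was nearly all Ldha in macrophage-like cells (96.0%, 86.2%, 96.7% and 97.4%) but less than Ldhb in microglia-like cells (47.2%, 36.6%, 49.1% and 44.8% Ldha). Phosphofructokinase was divided in macrophage-like cells, with Pfkp at 56.1%, 53.3%, 57.6% and 59.8%, and Pfkl prevailed in microglia-like cells (63.6%, 80.8%, 70.4% and 88.4%). The widest 95% Wilson half-interval of a share was 1.80 percentage points in macrophage-like and 19.9 in NK/ILC1-like cells, for counting error only.

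Between groups, the Slc2a1 share of both Reg1-MO libraries exceeded that of both controls in 8 of 8 classes, for example at 47.3%, 48.5%, 63.1% and 65.3% in regulatory T-like cells. The classes come from the same 4 libraries and are not independent. How often shares within other gene families separate the groups was not worked out, so the class counts in this paragraph have no background rate beside them. For Slc16a3 (of Slc16a1 and Slc16a3) the same held in 7 of 8 classes, with 89.7%, 75.5%, 94.6% and 93.7% in macrophage-like and 63.2%, 45.5%, 74.8% and 69.6% in CD4 T-like cells. In neutrophil-like cells, where Slc16a3 was about 99.9% of the pair, it was lower. Shares in the other families separated the groups in fewer classes. For Pfkl both Reg1-MO libraries were higher in 4 classes and lower in 1, and for Pfkp higher in 1 and lower in 4. Ldha was higher in 3 and lower in 1, Hk1 higher in 1 and lower in 3, and Hk2 higher in 2 and lower in 1. In macrophage-like cells the mean share of Slc16a3 was 82.6% ± 10.1 (SD, n = 2) in controls and 94.1% ± 0.638 in Reg1-MO libraries, and that of Ldhb 8.94% ± 6.93 and 2.95% ± 0.515. Both gave a two-sided exact permutation p of 0.333, the smallest that 2 against 2 libraries allow. The Hk2 share, 52.7% ± 10.8 and 48.9% ± 3.43, and the Hk3 share, 31.9% ± 13.3 and 35.8% ± 6.29, overlapped between groups (exact permutation p = 1).

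**Figure D4:**
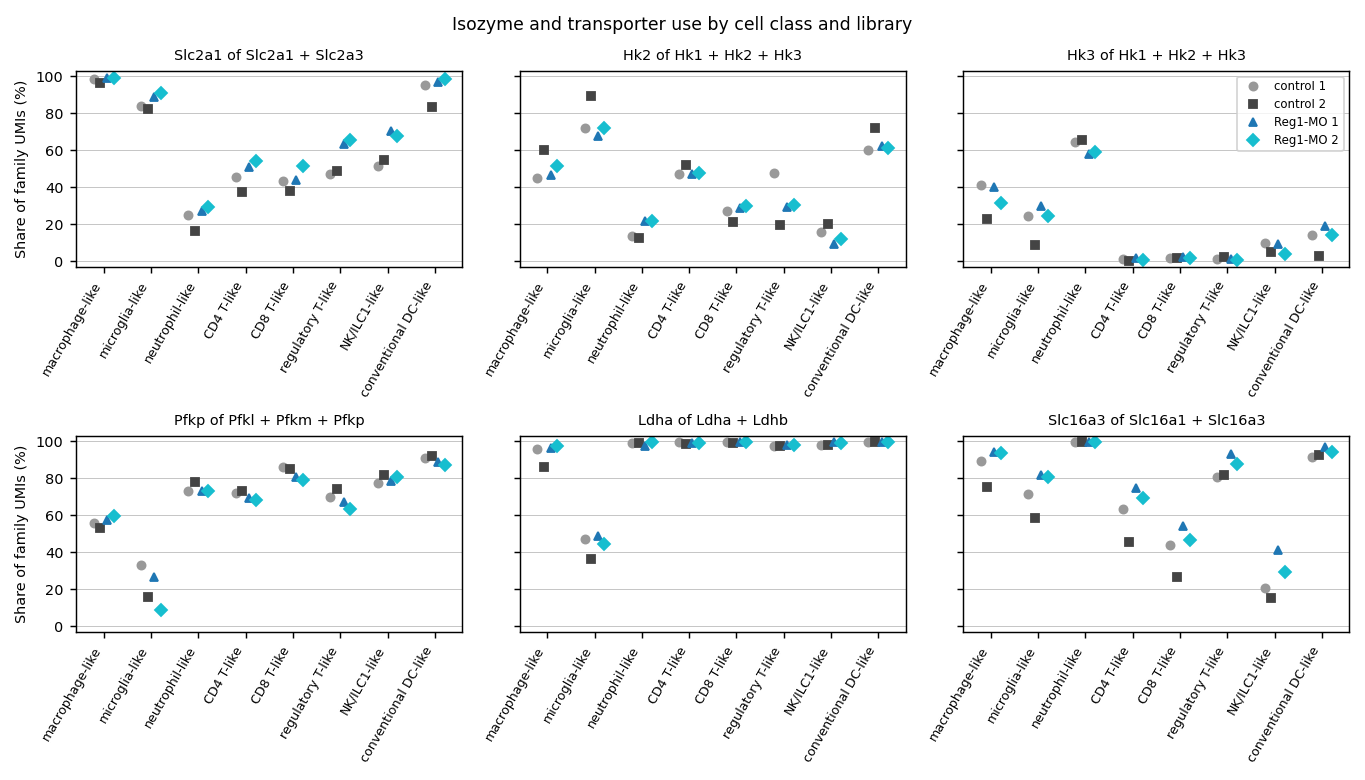
Share of a family's UMIs (percent, vertical axis) taken by 6 members, by class (horizontal axis) and library (points). Slc2a1 spans from 16.3% to 99.1% between neutrophil-like and macrophage-like cells, and Ldha falls below 50% only in microglia-like cells among the classes shown.

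Genes of neighbouring pathways, from written lists, were counted in the same way in macrophage-like cells. With edgeR 0 of their genes were called (lowest adjusted p per list 0.234 to 0.259), and 1 to 12 genes per list had an unadjusted p under 0.05. Of all genes tested in macrophage-like cells, 48.4% were above 0, 28.2% lay above both controls and 29.9% below both. Of 7 pentose phosphate genes, 3 were above 0 and 4 below (median -0.15), with Taldo1, transaldolase, at 429.8, 455, 365 and 420.1 CPM and Tkt, transketolase, at 286, 269, 285 and 293 CPM. Of 23 genes of pyruvate entry and the TCA cycle that passed the filter (24 listed), 4 were above 0 and 19 below, 14 of them with both Reg1-MO libraries below both controls (median -0.10). The 2 at the highest level there were Acod1, which makes itaconate, at 282, 49.3, 422 and 406 CPM, and the mitochondrial pyruvate carrier Mpc1, at 262, 346, 221 and 204 CPM. Idh1, named after its values were seen, was at 93.5, 159.6, 49.5 and 57 CPM (-1.25 ± 0.27, edgeR adjusted p = 0.234). Acod1 and Mpc1 thus lay on opposite sides, each without overlap between groups.

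Of 28 further hypoxia-responsive genes that passed (30 listed), 19 were above 0 and 9 below (median 0.37). Both Reg1-MO libraries lay above both controls for 16, against 28.2% of all genes. Plin2, which coats lipid droplets, was at 524, 692, 401 and 354 CPM and Anxa2, an annexin, at 374, 281, 421 and 455 CPM, so the 2 most abundant of the list went opposite ways. Of 10 other glycolysis genes that passed (17 listed), 6 were above 0, with Gpd2, the mitochondrial glycerol phosphate dehydrogenase, at 171, 159, 211 and 234 CPM and Pgm1 at 35.7, 19.9, 57.7 and 57.9 CPM. Of 11 genes known to respond to tissue dissociation, 7 were above 0 and 4 below (median 0.19). In neutrophil-like cells the further hypoxia list had 18 above and 3 below (median 0.25) and the TCA list 4 above and 17 below (median -0.11). The TCA list had 13 above and 10 below in CD4 T-like cells, and 14 above and 9 below in microglia-like cells. Of all genes tested, 48.7% were above 0 in neutrophil-like, 49.7% in CD4 T-like and 50.5% in microglia-like cells.

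**Figure D5:**
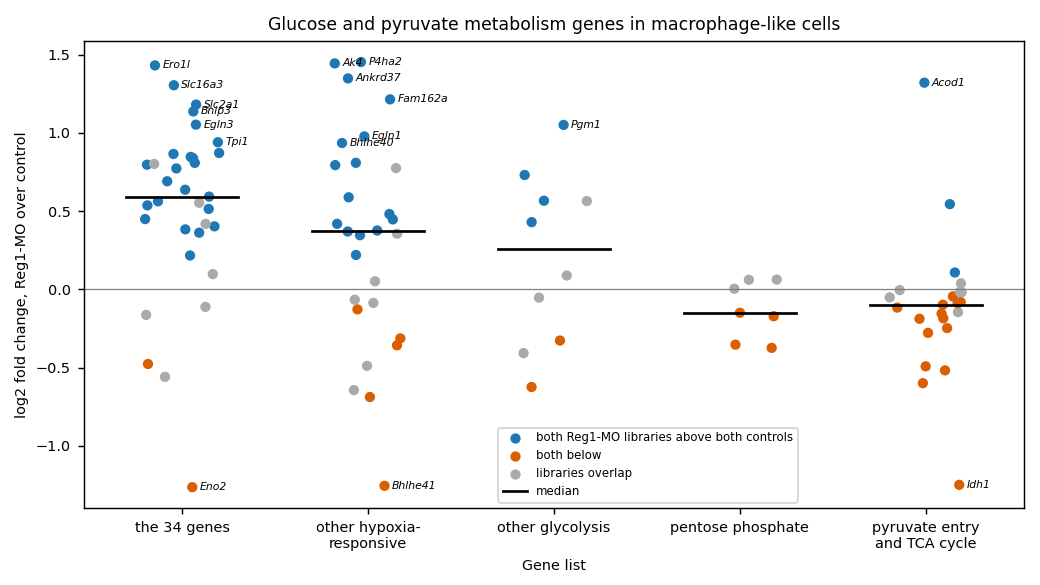
Log2 fold change, Reg1-MO over control, in macrophage-like cells for each gene (points) of the 34 members and of 4 neighbouring lists (horizontal axis); bars are medians and colours show whether both Reg1-MO libraries lie above or below both controls. The medians are 0.59 for the members, 0.37 and 0.26 for the other hypoxia and glycolysis genes, and -0.15 and -0.10 for the pentose phosphate and TCA lists.

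Whether the difference itself varied between classes was tested with an interaction term, with the library as a block. Between macrophage-like and T-like cells, 25 of 32 members had a larger log2 fold change in macrophage-like cells (median difference 0.36). With edgeR 0 were called (0% of 14043 genes; 12 members had an unadjusted p under 0.05, lowest adjusted p = 0.271). Between macrophage-like and neutrophil-like cells, 21 of 32 were larger in macrophage-like cells (median difference 0.41), and with edgeR 0 members were called (15 at an unadjusted p under 0.05) among 33 of 12818 genes (0.257%). The median difference of all genes was 0.15 here, and -0.01 with the size factors of DESeq2 in place of TMM, so the members' counts are to be read against that shift. The lowest adjusted p was 0.0822, for Ero1l, whose log2 fold change was 1.34 ± 0.27 larger in macrophage-like cells. Without control 1, 10 members were called in either interaction, among 927 of 14590 genes (6.35%) against T-like and 616 of 13292 genes (4.63%) against neutrophil-like cells. DESeq2 was not run for these. No member was thus shown to differ between these classes in its log2 fold change.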

How the data were processed

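Gene counts of 4 droplet libraries (3′ chemistry) of CD45+ cells sorted from digested spinal cord after a Percoll gradient were used. The deposited values are whole-number UMI counts per gene and cell, not normalised. Per the file headers, Cell Ranger 5.0.1 wrote them. The submitters' processing notes also name Seurat 4.0 and mm10, without saying what Seurat was used for. Any further filtering of barcodes by the authors is not given in the sources used here.

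All 34 members and the gene lists were chosen with earlier results of these data known. Barcodes under 500 UMIs or 200 genes, or with over 10% mitochondrial UMIs, were dropped (1.64% to 4.26%), and the highest Scrublet doublet scores were removed at a rate of 0.8% per 1000 barcodes. Cells were clustered with scanpy 1.11.5 (3000 variable genes, 40 components, 15 neighbours, Leiden resolution 1), and clusters were named from marker lists by thresholds set after the clusters were seen. Names can differ from those of the study. Some members were among the variable genes, so an alternative clustered without them.

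UMIs were summed per library and class. Of 9 classes chosen for testing, each had at least 50 cells in every library, and they were tested with edgeR 4.0.16 (quasi-likelihood F-test, TMM, filterByExpr with a minimum count of 10, R 4.3.3), 2 against 2 libraries, with Benjamini-Hochberg adjustment over all genes tested. The fit was checked on simulated counts with 200 changed genes. Each gene was drawn on its own, with no shift common to a whole library, so the shares below are not rates for the measured data. In macrophage-like cells (12927 genes), 51% of 2-fold and 89% of 4-fold changes were recovered. The shares were 45% and 72% in neutrophil-like (9580 genes), 74% and 94% in CD4 T-like (11052 genes) and 13% and 76% in microglia-like cells (11460 genes). Of the genes left unchanged, 16, 15, 18 and 14 were called in these classes, in that order. Over all tested classes this count ran from 1 (NK/ILC1-like) to 33 (CD8 T-like). Alternatives were DESeq2 1.42.0, its size factors, no filter, a block for the replicate number, leaving out each library, no doublet removal, a 5% mitochondrial limit and, added after seeing the data, equal weight of the 4 macrophage-like clusters. Values are given by library for members called in any class or cluster tested, the 3 with the smallest p in each class, the most abundant of each role and isozymes. Of the other lists, called genes or else the 2 most abundant are named. Further members and genes were named after their values were seen. Coordinates are from the GENCODE annotation of GRCm38, and Wilson intervals (95%) cover counting error only. DNA letters and promoter starts are from RefSeq.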

Additional observations from a re-analysis of the deposited data

Results flagged for a closer look

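Among the 8 tested classes that do not overlap (all but T-like cells as a whole), and counting a gene in a class only at a mean of 20 CPM or more, both Reg1-MO libraries lay above both controls in one class and below both in another for 8 of 29 members that could be compared in at least 2 classes (27.6%), and for 2612 of 7340 genes (35.6%). The members' share was no higher than that of all genes. The difference itself was not tested for any of these pairs of classes. Ndrg1 had a log2 fold change of 0.80 ± 0.20 in neutrophil-like and -1.42 ± 0.15 in CD4 T-like cells, a difference of 2.22. Hif1a was at 0.87 ± 0.19 in macrophage-like and -0.70 ± 0.34 in microglia-like cells, a difference of 1.57, and in the microglia-like class control 2 was mostly of another cluster than the other libraries. Pdk1 was at 0.70 ± 0.25 in regulatory T-like cells (24.8, 21, 33.7 and 41.4 CPM) and -0.69 ± 0.33 in NK/ILC1-like cells (32.5, 29.1, 18.9 and 19.6 CPM), a difference of 1.38. Hk2 was at 1.07 ± 0.16 in neutrophil-like and -0.13 ± 0.11 in CD4 T-like cells, a difference of 1.20. Hk1 was at 0.77 ± 0.20 in macrophage-like and -0.34 ± 0.22 in NK/ILC1-like cells (66.3, 73.6, 54.3 and 56.3 CPM), a difference of 1.11. Gpi1 was at 0.54 ± 0.12 in regulatory T-like and -0.39 ± 0.12 in neutrophil-like cells, a difference of 0.93. Slc2a3 was at 0.23 ± 0.13 in neutrophil-like and -0.68 ± 0.24 in NK/ILC1-like cells, a difference of 0.91. Pfkfb3 was at 0.22 ± 0.11 in macrophage-like and -0.45 ± 0.24 in NK/ILC1-like cells (61.3, 56.7, 42.3 and 44.5 CPM), a difference of 0.67. All classes come from the same 4 libraries.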

How the results depend on the processing

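The number of called members depended on the tool, the filter and which control library was kept, and the cause was not tested. It was 0 in every class except 1 in CD4 T-like cells. DESeq2 called 9 in macrophage-like, 4 in neutrophil-like, 5 in T-like, 2 in CD4 T-like and 3 in regulatory T-like cells. Of all genes tested in these classes it called 4.03%, 1.54%, 0.582%, 0.587% and 0.59%. Without the filter on low counts edgeR called 21, 8, 13, 13 and 12 members in these classes (9.65%, 3.66%, 2.66%, 3.33% and 2.32% of all genes). It called 2 in microglia-like (3.03%), 3 in CD8 T-like (1.15%), 1 in NK/ILC1-like (0.8%) and 12 in conventional DC-like cells (3.95%). In the interactions with T-like and neutrophil-like cells it called 5 and 4 (1.36% and 1.83%). With a mitochondrial limit of 5%, edgeR called 0 members in CD4 T-like cells (0.0179% of all genes) and 1 in the interaction with neutrophil-like cells (0.699%). Over all genes, the macrophage-like count went from 0 to 530 with DESeq2, 2051 without the filter, 2249 without control 1 and 109 without control 2, and the CD4 T-like count from 12 to 66 with DESeq2 and 633 without the filter. Leaving out one library gave 0 to 25 called members in macrophage-like, 0 to 3 in microglia-like, 0 to 10 in neutrophil-like, 0 to 8 in T-like, 1 to 13 in CD4 T-like, 0 to 12 in regulatory T-like, 0 to 1 in NK/ILC1-like and 0 to 23 in conventional DC-like cells, and 0 to 10 in either interaction, with the highest count each time without control 1. The median log2 fold change of the members then ranged from 0.36 to 0.92 in macrophage-like, -0.025 to 0.34 in microglia-like, 0.19 to 0.50 in T-like, 0.24 to 0.53 in CD4 T-like, 0.033 to 0.40 in CD8 T-like, 0.24 to 0.65 in regulatory T-like, -0.11 to 0.13 in NK/ILC1-like and 0.27 to 0.99 in conventional DC-like cells. In microglia-like cells it was 0.45 when cells were clustered without the members. In NK/ILC1-like cells, where it was near 0, its sign changed to 0.0098 with DESeq2, 0.034 when clustered without the members and 0.024 without doublet removal. In macrophage-like cells the difference in isozyme share without one library ranged from -11.4 to 3.90 percentage points for Hk2, -5.56 to 13.2 for Hk3 and -0.34 to 0.37 for Aldoc, which was 0.015 with all libraries and -0.044 with a mitochondrial limit of 5%.

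Libraries of the 2 groups share only a replicate number. Deviations of same-numbered libraries correlated at -0.033 to 0.26 over the genes of the 9 classes. With the replicate number as a block, edgeR called 8 members in neutrophil-like cells, among 474 of 9817 genes (4.83%). It called 3 in regulatory T-like cells, among 100 of 8814 genes (1.13%), and 0 in CD4 T-like cells, among 7 of 11235 genes (0.0623%). The Ldha call in cluster 16 and the Ndrg1 call in CD4 T-like cells were not made (edgeR adjusted p = 0.088 and 0.0634). The NK/ILC1-like median was 0.0059. The size factors of DESeq2 in edgeR changed none of the 20 main results and 41 single-gene or cluster results on which they were tried. No fit varied the depth, and its part in the counts of called members was not tested. The simulation cannot separate it from the spread between libraries and the number of genes, which also differed between the classes. Simulated 2-fold changes were recovered at 54% in NK/ILC1-like cells (7283 genes), the tested class with the fewest UMIs (657221 to 1627324 per library). In macrophage-like cells (12927 genes), the class with the most, the share was 51%. It was 50% in regulatory T-like (8619 genes), 29% in conventional DC-like (9272 genes), 60% in CD8 T-like and 72% in T-like cells.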

Other observations

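Migratory DC-like, plasmacytoid DC-like and B/plasma-like cells, each with fewer than 50 cells in at least 1 library, were not tested. Granulocyte-monocyte progenitor-like cells had enough cells but were not among the 9 classes chosen for testing. The values given here describe these libraries. Migratory DC-like cells (9 to 58 cells) had the highest Ndrg1 level seen in a named class, at 566, 378, 278 and 241 CPM, and it was lower in both Reg1-MO libraries, as in CD4 T-like cells. Plasmacytoid DC-like cells (36 to 170 cells) took lactate dehydrogenase transcripts from Ldhb more than other named classes except microglia-like cells, and the Ldha share was 61.4%, 59.5%, 79.6% and 81.3%. Their Ldhb level was 133, 167, 75.2 and 64.8 CPM. In B/plasma-like cells (24 to 78 cells) Gapdh was at 445, 360.4, 804 and 857 CPM and Ldha at 156, 145, 263 and 329.7 CPM, and in granulocyte-monocyte progenitor-like cells (61 to 210 cells) Slc16a3 was at 26.1, 34.3, 56.4 and 67.1 CPM.

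The deepest unnamed cluster, cluster 14 (median 54907 UMIs per cell, 125 to 821 cells), had Sparc of the microglia markers and Arg1 of the macrophage markers among its leading genes. The cluster was deeper than the macrophage-like and microglia-like classes, and whether it held doublets was not tested. Its members lay at 123, 106, 177 and 169 CPM for Slc2a1, 107, 49.5, 154 and 148 CPM for Slc16a3 and 194, 184, 221 and 195 CPM for Ldhb, between the macrophage-like and microglia-like levels of Slc16a3 and Ldhb. Ero1l was at 70.8, 34.2, 111 and 88.1 CPM there.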
